A study of Mus musculus with 2 samples.

Results

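The MYC, MAX and MXD network was followed as 9 genes in mouse germinal center B cells: Myc, Max, Mxd1, Mxd3, Mxd4, Mxi1, Mnt, Mga and Mlx. They were chosen by gene symbol alone among the 30905 genes listed, and all 9 were listed. Splenic B cells of the germinal center were sorted from C57BL/6J mice, an inbred strain, at 8 weeks of age after immunization with SRBC (sheep red blood cells, a common test antigen). The labels give no genotype beyond the strain, no time after immunization, no number of pooled animals and no sort markers. Both libraries, called library 1 and library 2, belong to this 1 group, so no treatment was compared. Each comparison set classes of cells against each other inside the libraries.

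MYC is a transcription factor that binds DNA only as a pair with MAX, at a short site called the E-box, and raises genes for ribosome building, metabolism and growth. The MXD proteins (Mxd1, Mxi1, Mxd3 and Mxd4), MNT and MGA also pair with MAX and compete with MYC for it and for E-boxes, and MXD proteins and MNT bring in SIN3 and histone deacetylases, which repress. MLX is a second common partner, for the sugar-responsive factors MLXIP and MLXIPL and for some MXD proteins and MNT. In germinal centers, the light zone is where B cells are selected by helper T cells and the dark zone is where they divide and mutate their antibody genes. Myc is known there for its expression in a small share of light zone cells.

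The promoters of members were searched for the E-box CACGTG, the site that MAX pairs bind, which reads the same on both strands. RefSeq promoter sequences (GRCm38.p6) were matched for 8 of the 9 members, all but Myc, with 10 promoters in all because Mxi1 had 3. In the 250 bases before the start site, 3 members held the motif (Mxd4, Mnt and Mlx), and so did 1978 of 32851 promoters (6.02%). Shown 5′ to 3′ are the Mxd3 and Mxd4 promoters, because these genes had the largest differences across the cell cycle, and 30 bases around the Mnt and Mlx motifs. Each stretch ends before the first annotated transcribed base, and capitals mark the E-box. The Mxd3 stretch is chr13:55329824-55329981 (minus strand) and the Mxd4 stretch is chr5:34187721-34187960 (minus strand). The Mnt stretch is chr11:74830789-74830818 and the Mlx stretch is chr11:101087238-101087267, both on the plus strand.
Mxd3: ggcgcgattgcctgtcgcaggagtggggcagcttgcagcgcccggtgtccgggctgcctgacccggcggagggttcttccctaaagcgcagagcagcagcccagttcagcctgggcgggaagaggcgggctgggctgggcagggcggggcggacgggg
Mxd4: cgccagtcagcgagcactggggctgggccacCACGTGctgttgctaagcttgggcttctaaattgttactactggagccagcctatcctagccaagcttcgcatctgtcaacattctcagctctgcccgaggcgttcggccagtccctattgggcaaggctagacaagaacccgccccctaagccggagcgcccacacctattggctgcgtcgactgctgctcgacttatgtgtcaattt
Mnt: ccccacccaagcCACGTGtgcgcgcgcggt
Mlx: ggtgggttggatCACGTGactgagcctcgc
Counted from the RefSeq start site, the motif began 219 bases before it in Mxd4, 123 bases before it in Mnt and 40 bases before it in Mlx. GENCODE places the gene starts at other bases, so distances to those differ. A match is a run of letters and not a measured binding site.

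Positions are from GENCODE M21 on mm10, to which 30766 of the 30905 gene identifiers were matched. There Myc (ENSMUSG00000022346) spans chr15:61985391-61990374 on the plus strand. Max (ENSMUSG00000059436) spans chr12:76937269-76962201 on the minus strand and overlaps Gm47218 on the same strand. The MXD genes are Mxd1 (ENSMUSG00000001156, chr6:86647042-86669161, minus strand), Mxd3 (ENSMUSG00000021485, chr13:55325168-55329823, minus strand), Mxd4 (ENSMUSG00000037235, chr5:34173883-34187720, minus strand) and Mxi1 (ENSMUSG00000025025, chr19:53310518-53375810, plus strand). Mxd1 overlaps Gm44292 on the same strand, while Mxd3 overlaps Prelid1, Mxd4 overlaps Gm42846 and Mxi1 overlaps AC133451.2 and Gm10197 on the opposite strand. Mnt (ENSMUSG00000000282) spans chr11:74830920-74845725, Mga (ENSMUSG00000033943) spans chr2:119897228-119969581 and Mlx (ENSMUSG00000017801) spans chr11:101087277-101092207, all on the plus strand, and Mlx overlaps Psmc3ip on the opposite strand. Whether reads in such overlaps were shared out correctly is not given in the sources used here.

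Counts were of unique molecular identifiers (UMIs, tags that each mark 1 captured RNA molecule). The libraries held 75121538 and 61874342 UMIs over 8765 and 7868 barcodes, of which 5142 and 3526 were kept at 500 genes, 1000 UMIs and at most 20% mitochondrial UMIs, with median depths of 8183.5 and 8243 UMIs. Before the mitochondrial limit, 8385 and 7672 barcodes had passed. Germinal center markers were broadly found: the surface receptor subunit Cd79b had a UMI in 99.5% of the kept cells of each library and the transcription factor Mef2b in 83.3% and 82.5%. Of the plasma cell markers, Jchain was also broad (84.4% and 83.9%) and Xbp1 was found in 42.5% and 44.6% of cells. The others were rarer: Irf4 in 8.32% and 7.71%, Prdm1 in 1.17% and 1.08%, and Sdc1 in 0.545% and 0.510%. Of 7 natural killer cell and neutrophil markers, Ncr1, Gzma, S100a9 and Camp had 0 UMIs in both libraries, which allows at most 0.0583% (library 1) and 0.0851% (library 2) of cells to hold one. The other 3 were found in few cells: Klrb1c in 0.136% and 0.170%, S100a8 in 0.0194% of library 1 and Ly6g in 0.0567% of library 2. Each macrophage marker had a UMI in at most 0.214% of cells, and the T cell receptor gene Trac in 0.972% and 1.70%. Cells with at least 3 germinal center markers and fewer than 3 UMIs of those lineages numbered 5111 and 3500. The kept cells shared 9 barcodes between the libraries. Scrublet, a doublet caller, marked 0 cells in either library, and its calls were not used. No doublets were removed, and each result was also computed without the highest 6% of doublet scores.

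Levels are given as CPM, the UMIs of a gene divided by the summed UMIs of a class of cells in 1 library, times 1000000. Mxd4 stood at 66.4 CPM in library 1 and 56.6 CPM in library 2, Mga at 58.8 and 56.2 CPM, Max at 54.0 and 59.8 CPM, and Mxd3 at 34.0 and 36.8 CPM. Myc stood at 19.7 and 29.1 CPM, Mnt at 22.6 and 20.1 CPM, and Mlx at 19.5 and 23.6 CPM. Mxd1 (3.07 and 2.93 CPM) and Mxi1 (2.16 and 2.52 CPM) rested on 181 and 121 and on 127 and 104 UMIs, so their differences had wide errors. Because 3′-end UMIs count molecules and capture can differ between genes, levels were compared across classes and not ranked between genes.

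To compare shares of cells across depths, UMIs were drawn at random until every cell held 3000, which left out 303 and 296 shallower cells and kept 4839 and 3230. A Myc UMI was then found in 191 cells of library 1 (3.95%, exact 95% binomial interval 3.42 to 4.53%) and 165 cells of library 2 (5.11%, 4.37 to 5.92%). Without thinning the shares were 12.1% and 14.9%. At the thinned depth, Mxd4 was found in 20.9% and 19.0% of cells, Mga in 17.0% and 16.7%, and Max in 15.0% and 15.2%. Mxd3 was found in 8.70% and 8.89%, Mnt in 7.36% and 6.93%, and Mlx in 4.67% and 6.22%. Mxd1 (1.16% and 0.960%) and Mxi1 (0.599% and 0.836%) were found in about 1 cell in 100. No cell type that should lack these genes was large enough to give a background share, so free RNA was not tested as a source of single UMIs, and the intervals cover counting error only.

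Classes were read on the thinned cells. Cells with a UMI of Cd83 or Cd86 but no Cxcr4 formed the light zone gate, and those with Cxcr4 but neither Cd83 nor Cd86 the dark zone gate. This gave 1659 and 1179 light zone gate cells and 769 and 489 dark zone gate cells, of which 860 and 590 and 608 and 380 rested on a single UMI. With another random thinning, 61.6% and 58.8% of cells kept their gate. Phases were called from scores of S and G2/M gene lists that hold no member: 1014 and 600 cells were G1-like, 1517 and 1057 S-like, and 2308 and 1573 G2/M-like, and 730 cells (15.1%) and 412 cells (12.8%) lay within 0.05 of a score boundary. IgM and IgG cells had at least 5 UMIs of heavy chain constant genes with at least 80% from that isotype. The tests summed UMIs per class and library and used edgeR's quasi-likelihood test with the library as a block and Benjamini-Hochberg adjustment over all genes tested. With 2 libraries and 1 residual degree of freedom, and no statement that the libraries came from separate animals, the p-values measure only the spread between these libraries, which may be technical. A member is said to have risen or fallen where its adjusted p was under 0.05.

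**Figure D1:**
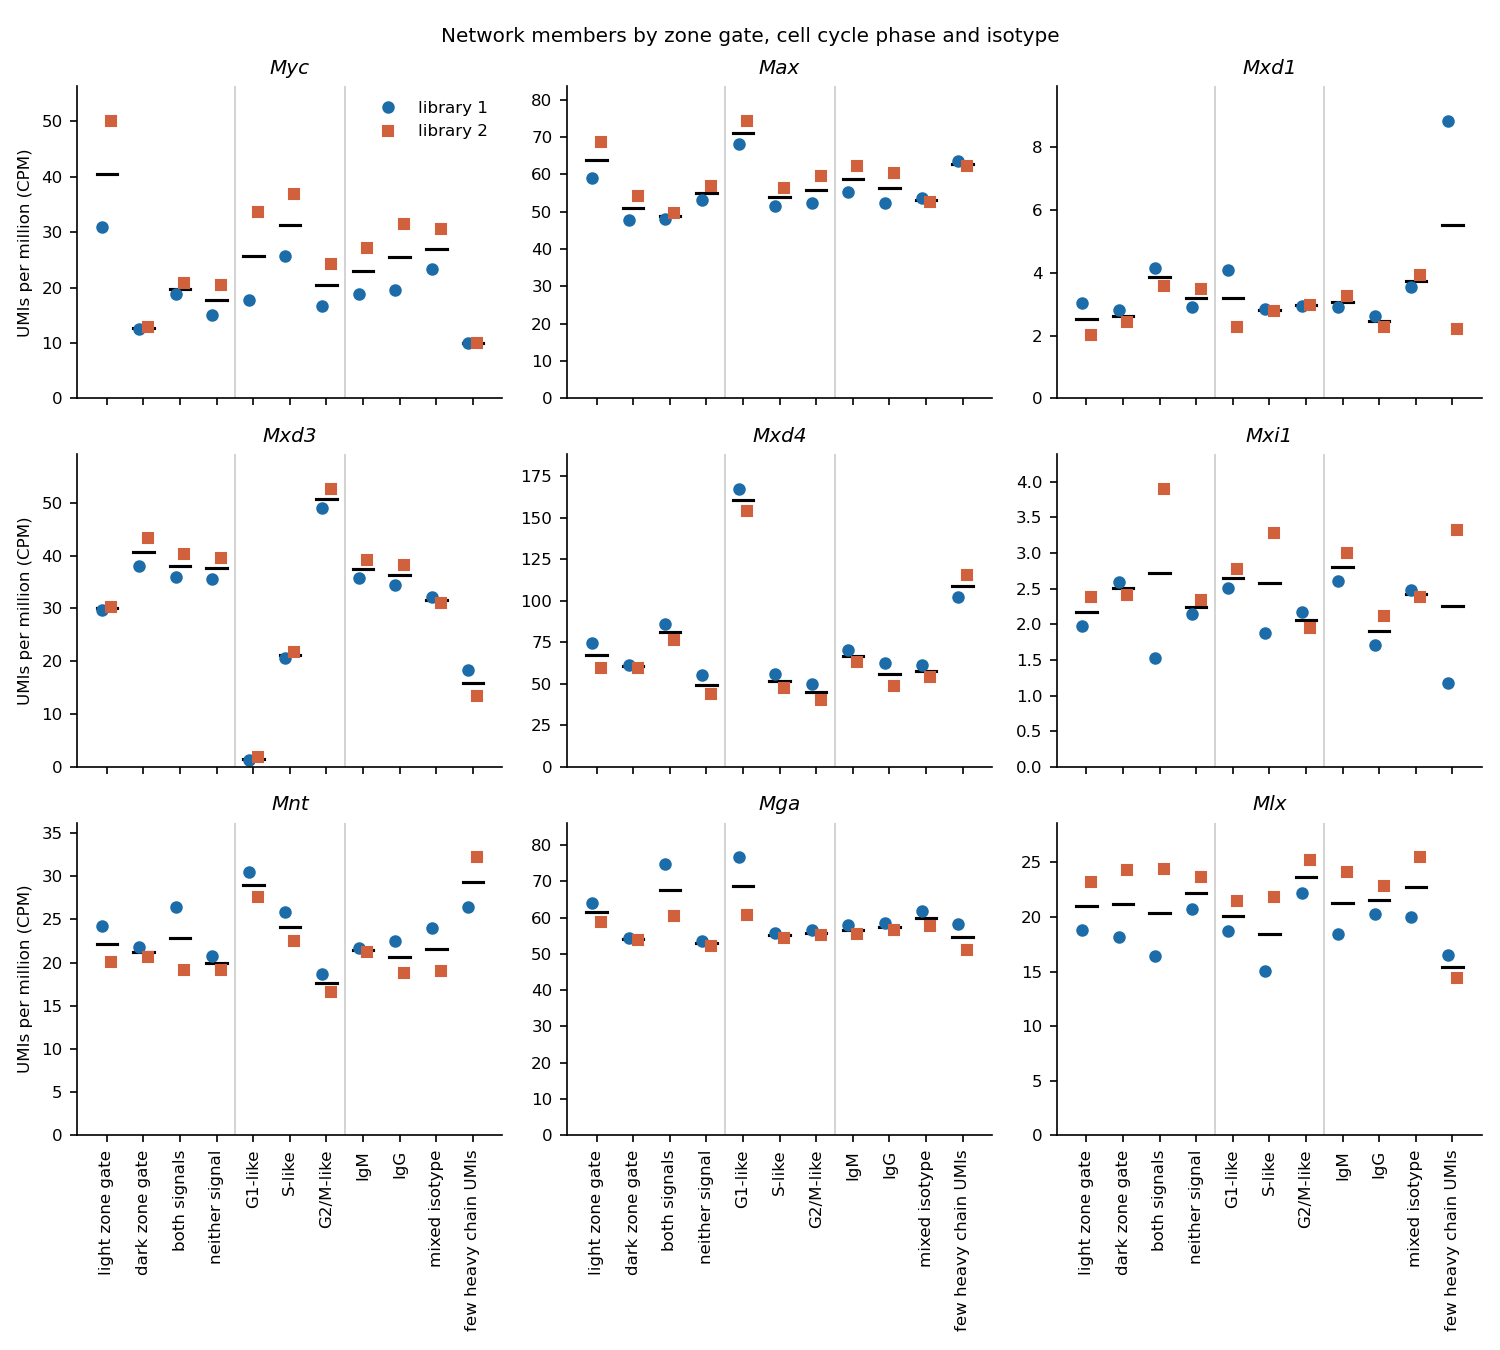
Levels of the 9 members (CPM, linear axes starting at 0) in each zone gate, phase and isotype class; circles are library 1, squares library 2 and bars their mean. Myc is highest in the light zone gate (31.0 and 50.1 CPM), Mxd4 in G1-like cells (167 and 154 CPM) and Mxd3 in G2/M-like cells (49.0 and 52.6 CPM).

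Between the zone gates, Myc was the member that differed most. Its level was 31.0 and 50.1 CPM in light zone gate cells and 12.5 and 12.9 CPM in dark zone gate cells of libraries 1 and 2. Both light zone sums were above both dark zone sums, and the difference was larger in library 2. Myc rose by 1.60 ± 0.11 (SE) on the log2 scale (adjusted p = 7.58e-31), with 1.28 in library 1 and 1.94 in library 2. The share of cells with a Myc UMI was 6.03% (4.93 to 7.28%) and 7.72% (6.26 to 9.39%) in the light zone gate, against 2.99% (1.91 to 4.45%) and 2.45% (1.27 to 4.25%) in the dark zone gate. Cells with both signals stood at 19.8 ± 1.39 CPM (SD, n = 2) and those with neither at 17.8 ± 3.80 CPM. These were between the gates, and did not differ from each other beyond their spread.

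Max, the shared partner, stood at 59.0 and 68.7 CPM in the light zone gate and at 47.7 and 54.2 CPM in the dark zone gate. Both light zone sums were above both dark zone sums, and Max rose by 0.31 ± 0.07 (adjusted p = 0.000143). Mga, a large MAX partner that also carries a T-box domain, stood at 64.1 and 58.9 CPM against 54.2 and 53.8 CPM, also without overlap, and rose by 0.18 ± 0.07 (adjusted p = 0.0355). Mxd3 went the other way, at 29.7 and 30.3 CPM in the light zone gate against 38.0 and 43.3 CPM in the dark zone gate. Both dark zone sums were above both light zone sums, and Mxd3 fell by 0.43 ± 0.08 (log2 fold change -0.43, adjusted p = 7.86e-06). Mxd4 was higher in the light zone gate in library 1 (log2 0.27) and not in library 2 (log2 -0.01), for 0.15 ± 0.07 together (adjusted p = 0.0809). Mnt (log2 0.07 ± 0.10), Mlx (-0.01 ± 0.11), Mxd1 (-0.03 ± 0.30) and Mxi1 (-0.24 ± 0.31) did not pass the test.

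In this comparison 4 of 9 members passed, 3 higher and 1 lower, beside 28.8% of the 10660 genes tested (15.4% higher and 13.4% lower). The call for Myc held under all 16 alternatives run, with log2 differences of 1.03 to 2.52. The call for Max was lost under 6 of 16 and that for Mxd3 under 4 of 15. Mga lost its call under 12 of 16, and with gates of at least 2 UMIs its log2 difference was -0.073 (adjusted p = 0.78). Without the library block, Max (adjusted p = 0.234), Mxd3 (0.0927) and Mga (0.518) did not pass.

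Phase composition differed between the gates: G1-like cells made up 30.7% and 27.0% of the light zone gate and 15.7% and 11.7% of the dark zone gate, and G2/M-like cells 35.3% and 38.6% against 59.3% and 61.6%. Comparing the gates inside each phase, Myc rose in G1-like (log2 2.08 ± 0.44, adjusted p = 0.000108), S-like (1.03 ± 0.18, adjusted p = 0.000456) and G2/M-like cells (1.88 ± 0.15, adjusted p = 3.49e-09). The light zone level of Myc was 27.0 and 48.5 CPM in G1-like, 37.6 and 55.8 CPM in S-like and 27.3 and 46.5 CPM in G2/M-like cells. In the dark zone gate it was 7.10 and 10.1 CPM, 23.0 and 19.1 CPM, and 8.72 and 10.6 CPM. So the S-like cells held the highest Myc sum of each gate and library. The G1-like dark zone sums rested on only 5 and 3 Myc UMIs. After thinning, 7.80% and 10.3% of S-like light zone gate cells had a Myc UMI, against 6.25% and 2.29% of S-like dark zone gate cells. For G1-like cells this was 4.71% and 5.97% against 0.826% and 5.26%. For G2/M-like cells it was 5.47% and 6.59% against 2.19% and 1.99%. Counted by cell, the gates were thus close for G1-like cells of library 2 and S-like cells of library 1. Inside the phases Max differed by 0.37, 0.30 and 0.22 (adjusted p = 0.408, 0.122 and 0.0996). Mxd3 differed by -0.44 in S-like cells (adjusted p = 0.135) and by -0.05 in G2/M-like cells (adjusted p = 0.81). No other tested member passed within a phase, and Mxd3 was too low in G1-like cells to be tested. Naive and memory B cell markers (6 genes) summed to 317.5 and 307.6 CPM in the light zone gate and to 130.4 and 129.2 CPM in the dark zone gate, and their part in these differences was not tested.

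**Figure D2:**
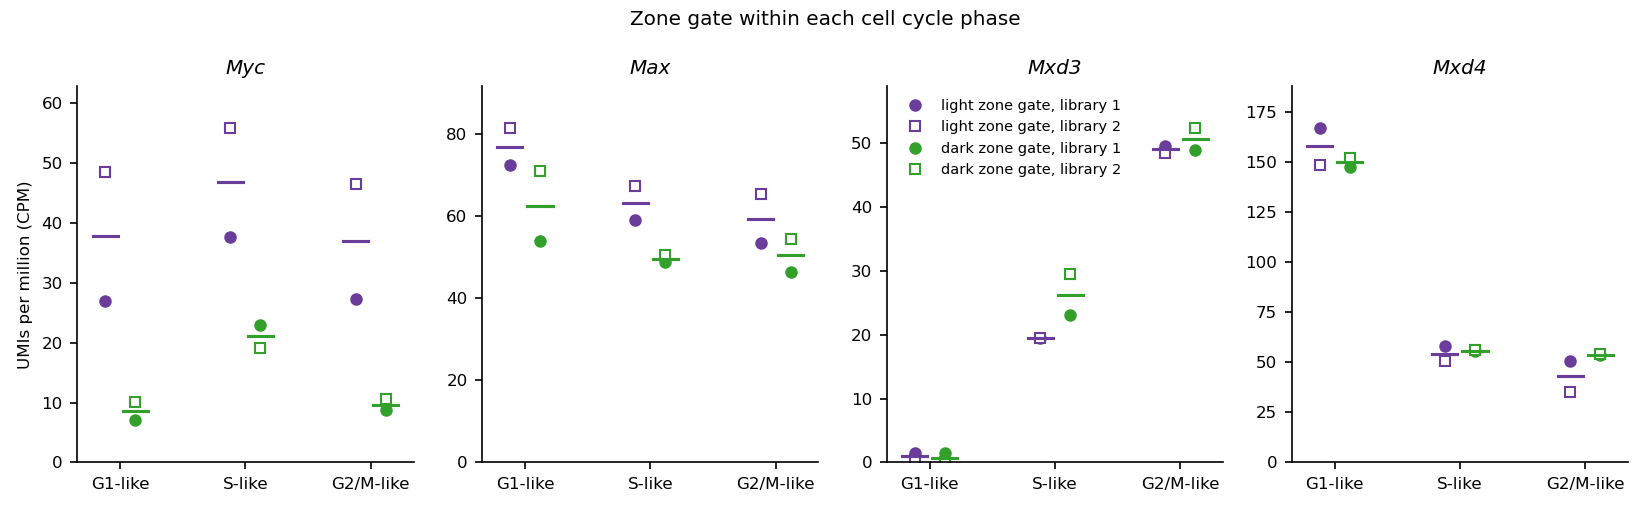
Levels of Myc, Max, Mxd3 and Mxd4 (CPM, linear axes from 0) by zone gate within each phase; purple is the light and green the dark zone gate, filled circles are library 1, open squares library 2 and bars the mean of both. Myc is higher in the light zone gate in every phase and library, while Mxd3 and Mxd4 differ mainly by phase.

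Around the network, 24 of 27 MYC target genes rose in the light zone gate and none fell, with a median log2 difference of 0.31 against -0.0015 over all genes tested. The gene lists were tested over all cells of each gate and not within phases. They included Polr1b, a subunit of RNA polymerase I (1.09 ± 0.14), Srm, which makes spermidine (0.92 ± 0.07), the nucleolar proteins Gnl3 (0.74 ± 0.05) and Nop16 (0.69 ± 0.08), and the amino acid transporter subunit Slc7a5 (0.64 ± 0.20). Shmt2 (-0.04), Mthfd2 (0.14) and Rrs1 (0.16) did not pass. Of 18 tested cofactors and relatives of MYC (21 were listed), 5 rose and none fell: Tfap4, a transcription factor known as a MYC target (0.92 ± 0.17), the acetyltransferase Kat2a (0.37 ± 0.11), the chromatin protein Wdr5 (0.32 ± 0.09), the corepressor Sin3b (0.18 ± 0.06) and the ubiquitin ligase Mycbp2 (0.17 ± 0.05). Of 7 genes of MYC protein turnover, the ubiquitin ligase genes Fbxw7 (0.22 ± 0.06) and Huwe1 (0.15 ± 0.05) rose. Of 10 genes of the MGA-containing polycomb complex, Ring1 (0.49 ± 0.11) and Yaf2 (0.39 ± 0.09) rose and Cbx3 fell (-0.19 ± 0.04). Beside the 28.8% of all genes called, these 3 lists had shares near the background, with medians of 0.015 (cofactors), 0.034 (turnover) and 0.073 (MGA complex) against -0.0015 over all genes tested. Txnip, a glucose-responsive target of MLX pairs, fell (-0.22 ± 0.07).

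Across the cell cycle, Mxd3 and Mxd4 differed most and in opposite directions. Mxd3 stood at 1.26 and 1.77 CPM in G1-like cells, from only 8 and 7 UMIs, at 20.7 and 21.8 CPM in S-like cells, and at 49.0 and 52.6 CPM in G2/M-like cells. The groups did not overlap. Mxd3 rose by 3.92 ± 0.24 in S-like (adjusted p = 1.49e-57) and by 5.17 ± 0.18 in G2/M-like cells (adjusted p = 4.28e-165) over G1-like cells. After thinning, an Mxd3 UMI was found in 0.394% and 0.833% of G1-like cells, 6.33% and 6.15% of S-like cells and 13.9% and 13.8% of G2/M-like cells.

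Mxd4 stood at 167 and 154 CPM in G1-like, 55.7 and 47.3 CPM in S-like and 49.7 and 40.4 CPM in G2/M-like cells. The G1-like sums were far above the others, and S-like and G2/M-like sums overlapped. Mxd4 fell in S-like cells (log2 -1.56 ± 0.06, adjusted p = 3.08e-127) and in G2/M-like cells (-1.77 ± 0.06, adjusted p = 1.32e-195). A UMI of Mxd4 was found in 38.1% and 34.7% of G1-like cells after thinning, against 17.8% and 16.1% of S-like and 15.4% and 15.1% of G2/M-like cells.

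The other members differed less. Max stood at 68.1 and 74.4 CPM in G1-like, 51.4 and 56.5 CPM in S-like and 52.3 and 59.5 CPM in G2/M-like cells. The G1-like sums were the highest in each library. It fell by 0.33 ± 0.08 in S-like (log2 -0.33, adjusted p = 4.54e-05) and by 0.30 ± 0.07 in G2/M-like cells (log2 -0.30, adjusted p = 4.59e-05). Mnt, a MAX partner found in many cell types, stood at 30.5 and 27.6 CPM in G1-like, 25.9 and 22.5 CPM in S-like and 18.7 and 16.6 CPM in G2/M-like cells. It fell in G2/M-like cells (-0.66 ± 0.10, adjusted p = 7.81e-10) and missed the threshold in S-like cells (-0.18 ± 0.11, adjusted p = 0.132). Mga fell in both (-0.26 ± 0.08, adjusted p = 0.00127, and -0.26 ± 0.07, adjusted p = 0.000364), mostly in library 1 (-0.36 and -0.37, against -0.11 and -0.09 in library 2). Mlx rose in G2/M-like cells (0.30 ± 0.11, adjusted p = 0.0128), at 22.2 and 25.2 CPM against 18.7 and 21.5 CPM in G1-like cells.

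Myc stood at 17.8 and 33.7 CPM in G1-like, 25.8 and 36.9 CPM in S-like and 16.6 and 24.2 CPM in G2/M-like cells. Its libraries differed more than its phases, and the groups overlapped. Within libraries, Myc rose in S-like cells (0.40 ± 0.11, adjusted p = 0.000529, with 0.62 and 0.19 in the libraries) and its G2/M-like difference just missed the threshold (-0.23 ± 0.11, adjusted p = 0.0504). At a mitochondrial limit of 10% the S-like difference of Myc was -0.26 (adjusted p = 0.0923), so its direction depended on which barcodes were kept. In that fit the G2/M-like difference was -0.81 (adjusted p = 1.75e-09). The Myc calls also turned on the control genes of the phase scores, from which the members were removed only after first results had been seen. With members left among them, the S-like difference of Myc was 0.11 (adjusted p = 0.426) and the G2/M-like difference -0.51 (adjusted p = 1.58e-06), so that neither phase call of Myc held across this choice. Mxd1 and Mxi1 passed in neither comparison.

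In all, 5 of 9 members passed in S-like cells, 2 higher and 3 lower, beside 59.9% of 10561 genes tested (30.3% higher and 29.6% lower). In G2/M-like cells 6 of 9 passed, 2 higher and 4 lower, beside 57.1% of 10937 genes (29.0% higher and 28.1% lower). These shares of members are near the background, and the 2 comparisons share their G1-like cells. G1-like cells were shallower, with median depths of 5118.5 and 5290.5 UMIs against 9558 and 9826 in S-like and 10446 and 10298 in G2/M-like cells. They also held more RNA of naive and memory B cell markers (504.5 and 561.7 CPM, against 165.7 to 185.5 CPM in the other phases) and of macrophage markers (64.0 and 12.9 CPM, against 1.8 CPM or less in the other phases). T cell markers summed to 2.36 and 9.87 CPM in G1-like cells, against 1.18 to 1.93 CPM in the other phases. The part of the naive and memory B cell markers in the results was not tested. In a fit restricted to cells with at least 3 germinal center markers and fewer than 3 UMIs of other lineages, 5 and 7 members passed. The calls for Mxd3 and Mxd4 held under all 15 alternatives run for each comparison. Without the library block, Myc and Mga lost their S-like calls (adjusted p = 0.213 and 0.15), and Max, Mga and Mlx their G2/M-like calls (adjusted p = 0.085, 0.176 and 0.118). The Mlx call was lost under 9 of 15 alternatives.

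**Figure D3:**
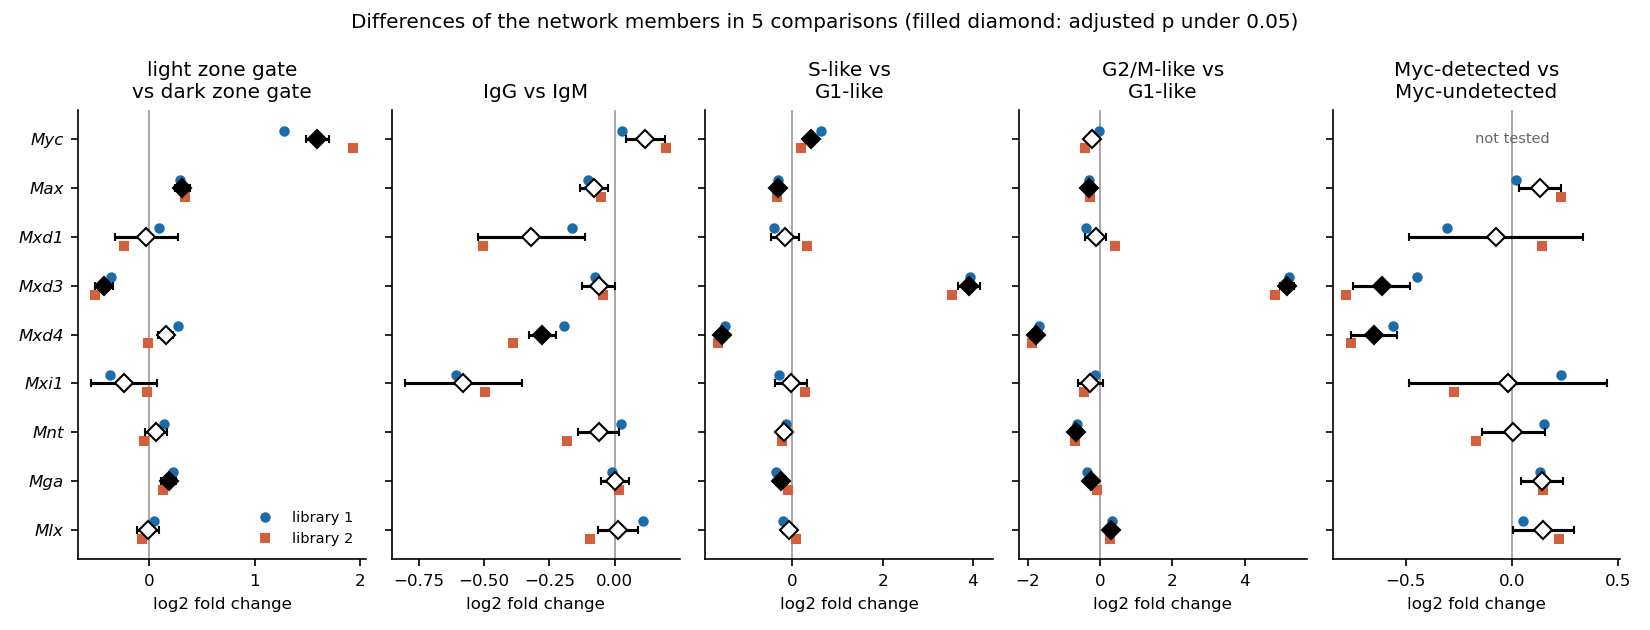
Log2 fold changes of the 9 members in the 5 comparisons; diamonds are the fitted value with its standard error, filled where the adjusted p was under 0.05, circles are library 1 and squares library 2, and axes differ between panels. Mxd3 (3.92 and 5.17) and Mxd4 (-1.56 and -1.77) stand far from 0 in the phase comparisons, Myc (1.60) in the zone comparison.

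The phase differences of Mxd3 and Mxd4 were also found inside each zone gate. In light zone gate cells Mxd4 stood at 167 and 148 CPM when G1-like, 57.9 and 50.7 CPM when S-like, and 50.8 and 35.4 CPM when G2/M-like. In dark zone gate cells it stood at 148 and 152 CPM, 55.4 and 56.0 CPM, and 53.5 and 54.2 CPM. Mxd3 reached 49.5 and 48.5 CPM in G2/M-like light zone gate cells and 48.8 and 52.4 CPM in G2/M-like dark zone gate cells. Its S-like level was 19.4 CPM in both libraries of the light zone gate and 23.0 and 29.5 CPM in the dark zone gate.

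Of the MYC targets, 25 of 27 rose and 1 fell in S-like cells (median log2 0.82, against -0.013 over all genes tested). In G2/M-like cells 22 rose and 1 fell (median 0.62, against -0.019). Ran, the nuclear transport GTPase (1.53 ± 0.06), the chaperone Hspd1 (1.44 ± 0.06), the cyclin-dependent kinase Cdk4 (1.43 ± 0.06), Srm (1.38 ± 0.07) and the growth regulator Pa2g4 (1.24 ± 0.06) rose most in S-like cells, and Ran also rose by 1.44 ± 0.05 in G2/M-like cells. Slc3a2, an amino acid transporter subunit, was the gene that fell in both (-0.27 and -0.34). Among the 18 cofactors, 11 rose and 4 fell in S-like cells and 10 rose and 4 fell in G2/M-like cells. The S-like increases included Tfap4 (1.38 ± 0.21), the deacetylase Hdac2 (0.97 ± 0.10), the helicase Ruvbl2 (0.97 ± 0.08), Wdr5 (0.90 ± 0.11) and the MYC-binding protein gene Mycbp (0.87 ± 0.12). Mlxip, a partner of MLX, fell in both (-0.50 and -0.35). In S-like cells the medians were 0.38 for the cofactors, 0.81 for the MGA complex and 0.28 for the turnover genes, and in G2/M-like cells 0.37, 0.63 and -0.081, beside 59.9% and 57.1% of all genes called.

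The MGA complex genes rose in 7 of 10 cases and fell in 1, in S-like cells as in G2/M-like cells. Tfdp1, the partner of E2F factors, rose by 1.88 ± 0.08 in S-like and 1.44 ± 0.07 in G2/M-like cells, and Cbx3, a heterochromatin protein, by 1.17 ± 0.06 and 1.22 ± 0.05. E2f6, the repressive E2F of this complex, rose by 1.17 ± 0.17 in S-like cells, and L3mbtl2 by 0.94 ± 0.11 in G2/M-like cells. Ring1 was the gene that fell in both (-0.25 and -0.33). Of the 7 turnover genes, 3 rose and 3 fell in S-like cells. Among them the ubiquitin ligase genes Skp2 (1.84 ± 0.13) and Stub1 (0.62 ± 0.07) rose, and Fbxw7 (-0.30 ± 0.06), the kinase Gsk3b (-0.18 ± 0.07) and Huwe1 (-0.14) fell. Txnip fell in S-like (-0.90 ± 0.07) and G2/M-like cells (-0.52 ± 0.07).

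Cells with a Myc UMI after thinning (191 and 165) were then set against those with none (4648 and 3065), to see which partners go with Myc. Myc itself chose the cells, and its sums of 150 and 174 CPM against 13.1 and 18.3 CPM are only a description (undetected cells can hold Myc UMIs that the thinning left out). Mxd4 and Mxd3 were the partners that differed, and both were lower with Myc. Mxd4 stood at 44.0 and 32.4 CPM in Myc-detected and 65.6 and 55.6 CPM in Myc-undetected cells. Every Myc-detected sum was below every undetected sum, and Mxd4 fell by 0.65 ± 0.11 (log2 -0.65, adjusted p = 5.30e-08). Mxd3 stood at 25.1 and 21.8 CPM against 34.7 and 38.2 CPM, again with no overlap, and fell by 0.61 ± 0.13 (log2 -0.61, adjusted p = 4.22e-05). These rested on 126 and 95 UMIs of Mxd4 and 72 and 64 UMIs of Mxd3 in Myc-detected cells.

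Max, which MYC needs to bind DNA, stood at 53.7 and 68.4 CPM with Myc and 53.7 and 59.3 CPM without (log2 0.13 ± 0.10, adjusted p = 0.346). Mga stood at 63.2 and 59.9 CPM against 58.3 and 55.0 CPM (0.14 ± 0.10, adjusted p = 0.304), and Mlx at 19.9 and 26.9 CPM against 19.4 and 23.4 CPM (0.15 ± 0.14, adjusted p = 0.501). Mnt (0.01 ± 0.15), Mxd1 (-0.07 ± 0.41) and Mxi1 (-0.02 ± 0.47) did not pass either. So 2 of 8 tested partners passed, none higher and 2 lower, beside 27.2% of 11311 genes tested (15.3% higher and 11.9% lower). The share of partners is near the background.

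Cells with 2 or more Myc UMIs after thinning numbered 22 and 26. Their Max sums were 83.1 and 119 CPM, from 26 and 55 UMIs, above those of cells with 1 Myc UMI (50.1 and 59.0 CPM) and with none (53.7 and 59.3 CPM). At equal depth the libraries went different ways: a Max UMI was found in 13.6% and 26.9% of cells with 2 or more Myc UMIs, against 21.3% and 12.9% with 1 and 14.8% and 15.2% with none. Against the cells with none, the Max sums differed by 0.83 on the log2 scale (adjusted p = 0.00366). It also passed where classes were read on unthinned counts (0.25, adjusted p = 8.68e-05), where another thinning was drawn (0.24, adjusted p = 0.0257) and at 2000 UMIs (0.34, adjusted p = 0.0253). In the other 13 alternatives it did not pass. The Mxd3 sums were 16.0 and 12.9 CPM in cells with 2 or more Myc UMIs, from 5 and 6 UMIs. Their Mxd4 sums were 47.9 and 10.8 CPM, from 15 and 5 UMIs, so the libraries did not agree. Mga was not higher there: its sums were 60.7 and 38.8 CPM, from 19 and 18 UMIs, against 63.4 and 63.9 CPM with 1 Myc UMI. A Mga UMI was found in 18.2% and 11.5% of cells with 2 or more Myc UMIs, against 22.5% and 25.2% with 1.

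Counted by cell at equal depth, Mga was found together with Myc in 42 and 38 cells, where shares that were independent of each other would give 32.4 and 27.5 cells. Mga was found in 22.0% (exact 95% interval 16.3 to 28.5%) and 23.0% (16.8 to 30.2%) of Myc-detected cells, and in 16.8% and 16.3% of Myc-undetected cells. For Max, 39 and 25 cells held both, against 28.6 and 25.1, so the libraries did not agree. Mxd4 was found in 15.2% and 14.5% of Myc-detected cells against 21.1% and 19.3% of the others, which is 29 and 24 cells where 39.9 and 31.4 would be given by independent shares. For Mxd3 the cells counted were 18 and 9, against 16.6 and 14.7, so that its lower level in the sums was not seen in the share of library 1. The intervals of Myc-detected and Myc-undetected cells overlapped for all 8 partners in both libraries, and no test was made on cells.

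**Figure D4:**
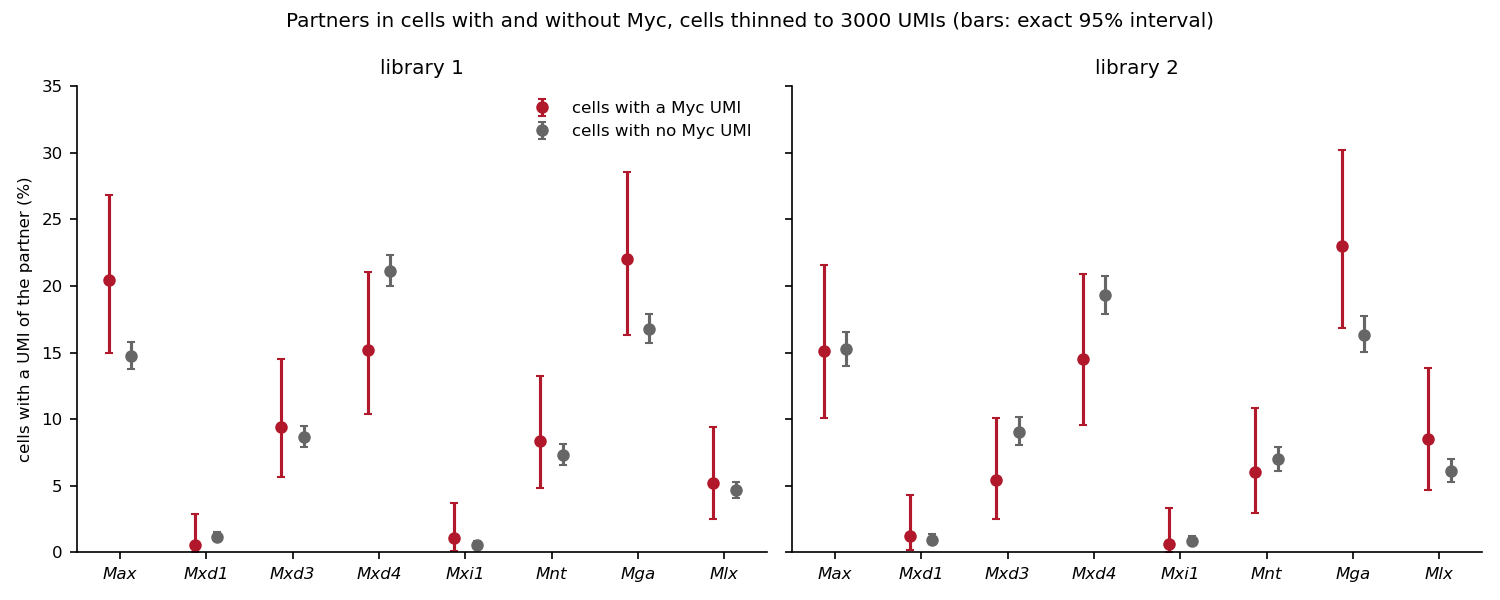
Share of cells (%) with at least 1 UMI of each partner among cells with and without a Myc UMI, all thinned to 3000 UMIs, in library 1 (left) and library 2 (right); bars are exact 95% binomial intervals, which cover counting error only. Mga sits higher (22.0% and 23.0% against 16.8% and 16.3%) and Mxd4 lower (15.2% and 14.5% against 21.1% and 19.3%) beside Myc in both libraries.

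Myc-detected cells were deeper (medians of 10331 and 13138 UMIs against 8566.5 and 8821) and held more S-like cells (44.5% and 44.2% against 30.8% and 32.1%). Inside the phases, Mxd4 fell with Myc in S-like (-0.65 ± 0.17, adjusted p = 0.0119) and G2/M-like cells (-0.999 ± 0.196, adjusted p = 1.36e-05), and its difference in G1-like cells was -0.36 ± 0.18 (adjusted p = 0.291). Mxd3 differed by -0.78 in S-like (adjusted p = 0.0532) and by -0.39 in G2/M-like cells (adjusted p = 0.115). Among light zone gate cells alone both fell, Mxd3 by 1.18 ± 0.23 (log2 -1.18, adjusted p = 8.07e-06) and Mxd4 by 1.09 ± 0.16 (log2 -1.09, adjusted p = 1.66e-09). Where the thinned counts themselves were summed, so that every cell weighed alike, neither passed (Mxd4 -0.42, adjusted p = 0.209, and Mxd3 -0.26, adjusted p = 0.729). Without the library block the adjusted p was 0.0896 for Mxd4 and 0.0604 for Mxd3. Germinal center markers (11 genes) summed to 4523 and 4193 CPM in Myc-detected cells and to 5682 and 5743 CPM in the others. Cd79b, Mki67 and Cd79a held the most UMIs of that list (93368, 86044 and 69709 in the kept cells of library 1). Which of its genes set the difference was not tested. Naive and memory B cell markers summed to 234.8 and 306.8 CPM against 204.6 and 209.8 CPM. The median mitochondrial share was 12.6% and 10.4% against 13.4% and 13.6%. The part of these differences in the results was not tested. Macrophage markers summed to 34.2 and 0.0 CPM against 6.4 and 1.7 CPM, and without cells of other lineages both partners fell (Mxd4 -0.68 and Mxd3 -0.61).

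All 27 MYC targets rose with Myc, with a median log2 difference of 0.71 against -0.011 over all genes tested. Of these genes 25 also rose in S-like over G1-like cells, and S-like cells were more common among Myc-detected cells. The lists were not tested within phases or on thinned sums, so the part of phase and depth in this rise was not tested. Srm (1.38 ± 0.07), Polr1b (1.10 ± 0.15), Gnl3 (1.05 ± 0.06), Hspd1 (1.01 ± 0.05) and the nucleolar Nolc1 (0.97 ± 0.06) rose most, and the smallest rise was that of Shmt2 (0.40). Of the 18 cofactors, 6 rose, among them Tfap4 (1.04 ± 0.19), Kat2a (0.65 ± 0.14), Wdr5 (0.58 ± 0.11), Hdac2 (0.48 ± 0.11) and Ruvbl1 (0.41 ± 0.07), and Ep400 fell (-0.22). Beside the 27.2% of all genes called, the cofactor, MGA complex and turnover lists had medians of 0.047, 0.24 and 0.15 against -0.011. Of the 10 MGA complex genes, Pcgf6 (0.67 ± 0.13), Tfdp1 (0.40 ± 0.07) and Yaf2 (0.32 ± 0.11) rose and none fell. Of the 7 turnover genes 1 rose and 1, Gsk3b, fell (-0.32 ± 0.09). Txnip fell by 0.94 ± 0.12 (log2 -0.94, adjusted p = 9.51e-14), with -0.76 in library 1 and -1.11 in library 2.

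**Figure D5:**
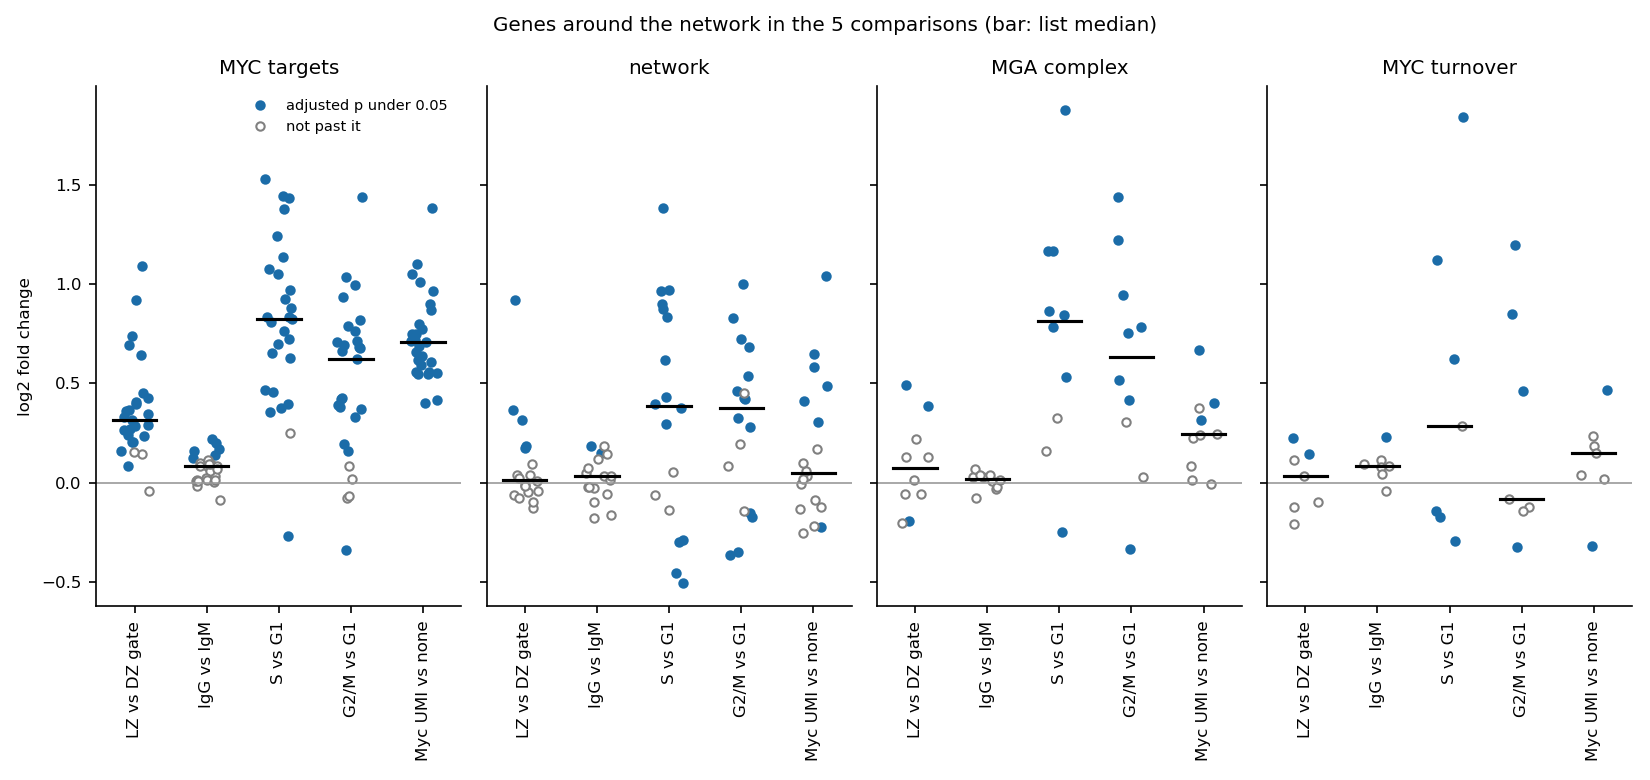
Log2 fold changes of the tested genes of 4 lists (27 MYC targets, 18 network cofactors, 10 MGA complex genes and 7 turnover genes) in the 5 comparisons (LZ and DZ, light and dark zone gate); each dot is a gene, filled where its adjusted p was under 0.05, and bars are list medians. The MYC targets sit above 0 for Myc-detected cells in all 27 cases (median 0.71) and close to 0 for IgG against IgM (median 0.08).

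By antibody class, 2192 and 1437 IgG cells were set against 1775 and 1323 IgM cells. Mxd4 was the member that passed, at 62.7 and 48.6 CPM in IgG and 70.5 and 63.1 CPM in IgM cells. The highest IgG sum was just below the lowest IgM sum, and Mxd4 fell by 0.28 ± 0.05 (log2 -0.28, adjusted p = 2.76e-06). Mxi1, at 1.71 and 2.11 CPM against 2.61 and 3.00 CPM, differed by -0.58 ± 0.22 (adjusted p = 0.0616). Myc stood at 19.5 and 31.4 CPM in IgG and 18.8 and 27.1 CPM in IgM cells (log2 0.12 ± 0.07, adjusted p = 0.333), with a UMI in 4.02% and 5.04% against 4.23% and 5.31% of cells. The log2 differences of Max (-0.08 ± 0.05), Mxd3 (-0.06 ± 0.06), Mnt (-0.06 ± 0.08), Mga (-0.0002 ± 0.05), Mlx (0.01 ± 0.08) and Mxd1 (-0.32 ± 0.21) were within about 2 standard errors of 0.

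With 1 of 9 members called, none higher and 1 lower, the share beside 14.4% of 11223 genes tested (6.08% higher and 8.34% lower) is near the background. Scaled by library size alone, 962 genes were higher and 828 lower, in place of 682 and 936, and Mxd4 remained lower. The Mxd4 call was lost under 4 of 11 alternatives, among them the fit without the library block (adjusted p = 0.748), DESeq2 (0.159) and light zone gate cells alone (-0.27, adjusted p = 0.123). G1-like cells, which held the most Mxd4, made up 19.5% and 15.3% of IgG and 22.5% and 21.7% of IgM cells. Naive and memory B cell markers, a list that includes the IgD gene used to call IgM cells, summed to 153.5 and 154.7 CPM in IgG and 266.2 and 286.7 CPM in IgM cells, and their part in the difference was not tested.

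Among IgG cells, IgG1 was the main subclass (1735 and 1125 cells), with Myc at 19.7 and 27.5 CPM and Mxd4 at 63.1 and 48.9 CPM. In the 193 and 141 IgG2b cells Myc stood at 12.8 and 49.8 CPM and Mxd4 at 58.7 and 55.6 CPM, so that the libraries differed more than the subclasses. The 313 and 216 cells with fewer than 5 heavy chain UMIs had median depths of 4315 and 3259 UMIs. In these, Myc stood at 10.0 and 9.99 CPM, Mxd3 at 18.3 and 13.3 CPM and Mxd4 at 102 and 115 CPM. Macrophage markers summed to 247.9 and 3.3 CPM there.

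Of the lists, 7 of 27 MYC targets rose in IgG cells and none fell (median 0.08, against 0.007 over all genes tested), led by Shmt2 (0.22 ± 0.04), the ribosome factor Rrs1 (0.20 ± 0.05) and Hspd1 (0.17 ± 0.04). Of the cofactors Sin3a (0.18 ± 0.06), Ruvbl1 (0.15 ± 0.04) and Mycbp2 (0.15 ± 0.04) rose. Of the turnover genes Skp2 rose (0.23 ± 0.07). The medians were 0.033 for the cofactors, 0.084 for the turnover genes and 0.020 for the MGA complex, beside 14.4% of all genes called. Of the MGA complex 0 of 10 passed by edgeR, and 0 had an unadjusted p under 0.05. Txnip fell (-0.29 ± 0.05).

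The genes most like Myc, Mxd3 and Mxd4 were sought over 12 sums (2 libraries, 2 zone gates and 3 phases) among 5581 genes with a mean of at least 20 CPM, by Pearson's r of log2(CPM + 1). The sums share libraries and depth, so r is a description without a test. In the G1-like dark zone sums Mxd3 had only 1 and 0 UMIs and Myc 5 and 3, so their r values rest partly on sums near 0. For Myc these were the tRNA methyltransferase gene Mettl1 (r = 0.962), Gnl3 (0.942), Ppan (0.942), Timm9 (0.941) and Mybbp1a (0.938), of which Gnl3 and Mybbp1a are in the MYC target list. For Mxd3 they were Ccdc34 (0.993), the topoisomerase gene Top2a (0.993), the cohesin gene Smc1a (0.992), the cyclin gene Ccnf (0.991) and the citron kinase gene Cit (0.990), and Top2a is in the G2/M list that set the phases. For Mxd4 they were Gm26740 (0.987), the sugar transferase gene Ogt (0.978), Atp6v0b (0.978), Akap8l (0.976) and the adenylate cyclase gene Adcy7 (0.971).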

How the data were processed

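Single cells were profiled with the 10x Genomics 3′ version 3 kit, per the labels' protocols. The deposited matrices hold the authors' raw UMI counts per gene and barcode. Their headers name Cell Ranger 3.0.2, and the submitters' processing notes name mm10 as the build. Further settings are not given in the sources used here. The members, lists and tests were chosen with earlier results of these data known. Cells were filtered and thinned as stated, and phases scored with scanpy 1.11.5 (43 S and 54 G2/M genes in the files, members excluded as control genes, a choice made after a first run of these data and not part of the design). Counts of all kept cells, not thinned, were summed per class and library and tested with edgeR 4.0.16 (R 4.3.3; filterByExpr, TMM scaling, threshold 0.05). Both classes of a pair come from the same library, so the block pairs them by construction. Genes that define a class were left out of its test. Library values of a log2 fold change used a prior count of 2. All 9 members were named, and up to 5 genes per list and comparison with the largest fold change past the threshold and 1 sign in both libraries, with others named after their values were seen. DESeq2 1.42.0 was an alternative. The edgeR test was checked on simulated counts for the zone comparison only. Of 100 genes changed 1.5-fold 65% were recovered, and of 100 changed 2-fold 86%, with 8 false calls. Smaller changes were not simulated. Apart from the changed genes, the simulated sums shared the same profile and a fixed spread, with no difference between libraries. The simulation therefore did not try the library block and cannot show how many calls in the real data are false. Depth limits precision, since intervals cover counting error only. Some genes of the lists are not reported here.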

Additional observations from a re-analysis of the deposited data

Results flagged for a closer look

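For 2 members the zone difference went one way in both libraries in one phase and the other way in both libraries in another. Mxd4 was higher in the light zone gate in G1-like cells (log2 0.20 in library 1 and 0.0018 in library 2) and lower there in G2/M-like cells (-0.089 and -0.61). Mlx was higher in the light zone gate in S-like cells (0.50 and 0.023) and lower in G2/M-like cells (-0.097 and -0.022). The difference between the phases was not tested, and some of these values are close to 0.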

How the results depend on the processing

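Each of 44 member values, 18 of them past the threshold, was recomputed under up to 17 alternatives. Of 631 values 549 kept their side of the threshold, 62 lost it, 18 gained it and 2 changed sign: Mga in the zone comparison with gates of at least 2 UMIs (log2 fold change -0.073, adjusted p = 0.78) and Myc in S-like cells at a mitochondrial limit of 10% (-0.26). Phase scores with members among the control genes were an alternative chosen after seeing the data: members called numbered 4 in S-like and 7 in G2/M-like cells, in place of 5 and 6, and Myc changed its call in both. A further 58 sign changes were of values that passed neither way. Leaving out 1 library leaves no residual degrees of freedom and so gives a value without a test. Of 88 such values 85 stayed within the spread of the libraries. With 2 libraries each such value rests on the other library alone, which itself sets that spread. This outcome was therefore nearly fixed in advance and cannot show that a result is stable.

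Genes called in the zone comparison (3070) numbered 389 with no replicate block, 819 by DESeq2, 1308 on sums of thinned counts, and 628, 1046 and 1391 within G1-like, S-like and G2/M-like cells. For IgG against IgM (1618) they numbered 3005 at a mitochondrial limit of 40%, 84 with no replicate block, 268 by DESeq2, 787 on thinned sums and 293 within the light zone gate. For S-like cells (6325) they numbered 3425 by DESeq2, 4102 on thinned sums, and 4184 and 2451 within the light and dark zone gates. For G2/M-like cells (6245) they numbered 3844 with no replicate block, 3363 by DESeq2, 4146 on thinned sums and 1989 within the dark zone gate. For Myc-detected cells (3072) they numbered 6644 with classes on unthinned counts, 355 with no replicate block, 1264 by DESeq2, 337 on thinned sums, 1072 with at least 2 Myc UMIs, 542, 1183 and 1371 within G1-like, S-like and G2/M-like cells, and 1962 within the light zone gate.

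Members called in the zone comparison (4) numbered 1 with no replicate block, by DESeq2 and within each phase. For IgG against IgM (1) they numbered 2 at a mitochondrial limit of 10%, without the highest doublet scores and at 10 UMIs and 90%. They numbered 0 by edgeR with no replicate block, by DESeq2, on thinned sums and within the light zone gate, where 1, 1, 3 and 3 had an unadjusted p under 0.05. For S-like cells (5) they numbered 3 with no replicate block, 2 by DESeq2 and 3 within the dark zone gate, and for G2/M-like cells (6) 3, 3 and 2. For Myc-detected cells (2) they numbered 4 on unthinned counts, 1 within S-like and 1 within G2/M-like cells. They numbered 0 by edgeR with no replicate block, on thinned sums and within G1-like cells, where 2, 2 and 0 had an unadjusted p under 0.05, against 2 past the threshold by DESeq2. The cause of these changes was not tested. Mxd1 and Mxi1 passed in none of the main comparisons, and their UMIs limit what could be seen.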
